A study of Homo sapiens with 2 samples.

Results

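The ephrins and their Eph receptors, the semaphorins of classes 3 to 7 and their plexin receptors, and the SLIT ligands with their ROBO receptors are the main contact and guidance signals of developing vessels, heart and nerves. Members were all genes whose symbol in the deposited gene list named one of these families, which gave 58 of 36601 genes. They were 8 ephrins, 14 Eph receptors, 20 semaphorins, 9 plexins, 3 *SLIT* and 4 *ROBO* genes. Membership was set by names and by no measured value, although the families were chosen with earlier results of these data known.

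They were measured in 2 blood-generating heart-forming organoids (BG-HFOs) on day 14, one library each, from the human embryonic stem cell line hES3 NKX2.5-eGFP, which carries an eGFP reporter for the cardiac factor NKX2-5. Aggregates of these cells had been set in Matrigel and driven by timed activation and inhibition of WNT, with added factors that favour blood and endothelium. Both organoids, named 32.7 and 33.10, belong to 1 condition and 1 cell line, so all comparisons here run between cell classes within the organoids. Values are given for organoid 32.7 first and organoid 33.10 second, and the organoid is the replicate (n = 2).

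Ephrins are ligands anchored in the cell membrane, the A class by a lipid and the B class by a transmembrane stretch, and they signal when cells touch, into the cell with the Eph receptor and also back into their own. In vessels, ephrin-B2 is the classical sign of arteries and its receptor EphB4 of veins. Semaphorins steer cells by binding plexins, the secreted class 3 proteins mostly together with a neuropilin, and secreted SLITs repel cells that carry ROBO receptors. *ROBO4* is the endothelial member of its family.

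Cells were sorted into classes by their raw unique molecular identifiers (UMIs, 1 per captured transcript) for lists of other genes, none of them a member. A cell entered a lineage when it held at least 6 UMIs from at least 3 genes of that lineage's list and met no other list. Endothelium was split into arterial (AE) and venous (VE) cells where 1 list (*CXCR4*, *SOX17*, *DLL4*, *GJA5* and *HEY1*, or *NR2F2*, *APLNR*, *FLT4* and *LYVE1*) held at least 3 UMIs from at least 2 genes and at least 2 times those of the other. Epicardial and septum transversum cells (PE/ST) and mesenchymal cells (MES) were divided in the same way. The classes held 1594 and 1662 AE cells, 522 and 563 VE cells, 877 and 1093 endothelial cells left unsplit, 2686 and 2686 cardiomyocytes (CM), 126 and 256 PE/ST and 1109 and 745 MES cells. The blood classes were megakaryocytes (Mk, 539 and 1630), erythroid cells (Ery, 523 and 1514), monocytes and macrophages (Mo/Mφ, 472 and 232), granulocyte precursors (Gran, 221 and 52) and progenitors (HPC, 37 and 76). Foregut endoderm (PFE) had 64 and 15 cells and entered no test. Levels are UMIs of a gene per 1000000 UMIs of the class (CPM), and since neither transcript length nor the counted introns are corrected for, levels were compared between classes and not between genes.

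The endothelial split was checked with genes outside it. The arterial genes *GJA4* (556 and 498 CPM in AE, 206 and 139 in VE) and *IGFBP3* (885 and 711 against 76.2 and 65.0) were higher in AE. The venous gene *NT5E* (50.02 and 54.9 against 127 and 134) was higher in VE. So was *STAB2* (0.278 and 0.156 against 39.3 and 19.4), which is not particular to veins. Cells with at least 2 UMIs of *MKI67* and *TOP2A*, genes of dividing cells, made up 3.14% and 2.95% of AE but 9.004% and 9.06% of VE. In the cardiomyocyte class 25.4% and 25.0% of the cells held 15 or fewer UMIs of their list, and a list minimum of 30 UMIs was therefore added as an alternative after the data had been seen. Free RNA was not removed from the counts. The cardiac gene *TNNT2* stood at 17.5 and 21.9 CPM in AE against 4928 and 4282 CPM in CM. It belongs to the cardiomyocyte list, so the gate itself holds it low in AE, and these values do not measure free RNA.

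Of the 58 members 53 had enough UMIs to be tested, and *EPHA1*, *EPHA8*, *EPHA10*, *PLXNB3* and *SLIT1* did not. *EPHA1* reached at most 2.21 CPM in the classes of the fit, and the other 4 at most 1.76 CPM. Among the 53, the class with the highest mean level was PE/ST for 16, AE for 11, CM for 9, MES for 8, VE for 5, and Gran or HPC for 2 each, with the unsplit classes set aside. For 34 of the 53 the same class was highest in both organoids.

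**Figure D1:**
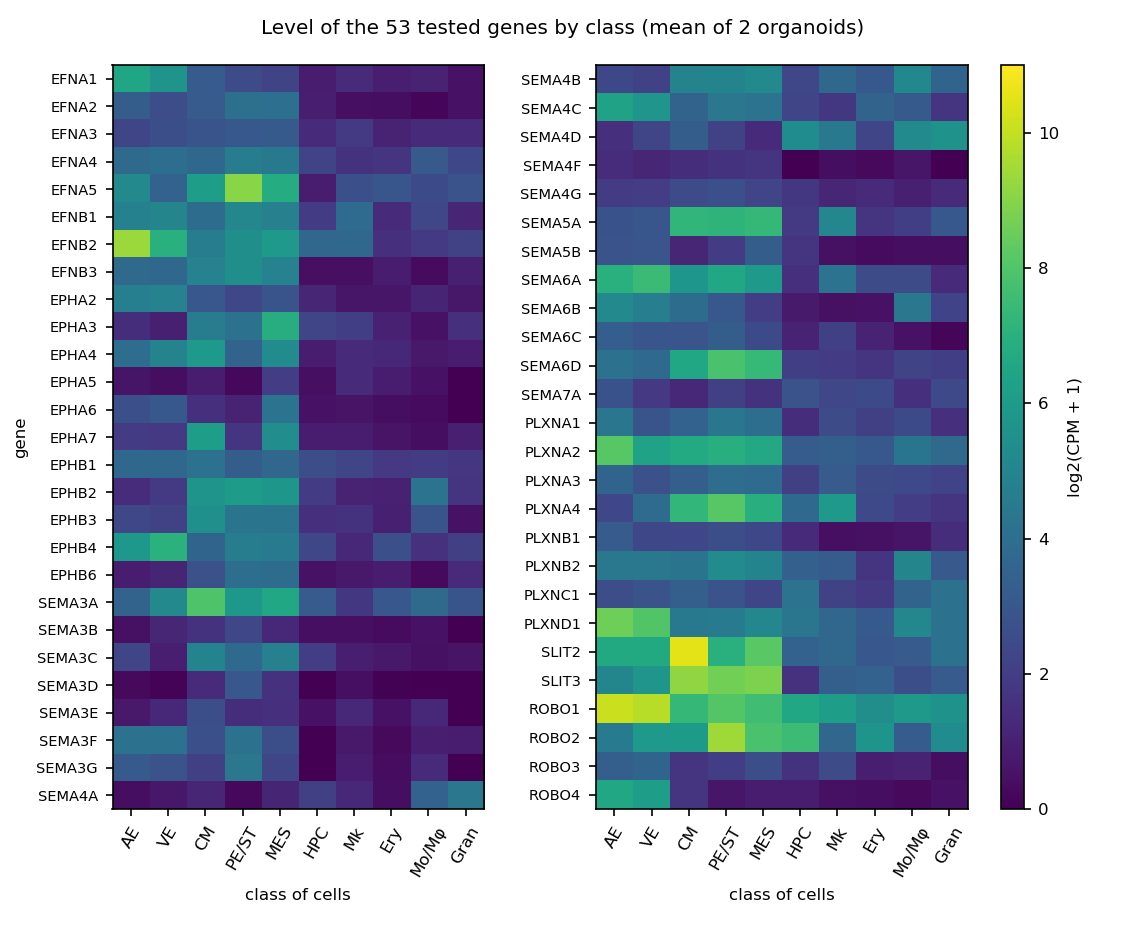
Mean level of the 53 tested genes over 2 organoids, as log2(CPM + 1), by class of cells. Ephrins and Eph receptors stand at the top left, semaphorins from the lower left to the upper right, and plexins, SLIT and ROBO genes at the lower right. *ROBO1*, *PLXND1* and *EFNB2* stood highest in AE, *SLIT2* in CM and *ROBO2* and *EFNA5* in PE/ST.

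The promoter windows of *EFNB2*, *EPHB4* and *ROBO4* are shown because these genes are the artery, vein and pan-endothelial signs of the set. Each is the 250 bases before the RefSeq start (GRCh38.p14), printed 5′ to 3′ on the strand of the gene, at chr13:106535663-106535912, chr7:100827524-100827773 and chr11:124897866-124898115, all on the minus strand. Capitals mark any match, on either strand, to TGGGAA (the core bound by RBPJ, the factor of Notch signalling), AGGTCA (a half-site of nuclear receptors such as NR2F2), ACAAT (a SOX core) or GGAAG (an ETS core).
EFNB2: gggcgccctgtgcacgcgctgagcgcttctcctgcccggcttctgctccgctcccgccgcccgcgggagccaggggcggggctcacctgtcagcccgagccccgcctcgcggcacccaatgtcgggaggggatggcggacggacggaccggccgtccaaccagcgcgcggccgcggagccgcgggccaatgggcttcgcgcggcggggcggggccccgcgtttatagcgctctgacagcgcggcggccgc
EPHB4: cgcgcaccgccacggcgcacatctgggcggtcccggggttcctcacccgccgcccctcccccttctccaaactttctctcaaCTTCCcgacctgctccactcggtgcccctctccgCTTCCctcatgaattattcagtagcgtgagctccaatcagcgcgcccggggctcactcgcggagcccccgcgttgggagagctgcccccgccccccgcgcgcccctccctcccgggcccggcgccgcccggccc
ROBO4: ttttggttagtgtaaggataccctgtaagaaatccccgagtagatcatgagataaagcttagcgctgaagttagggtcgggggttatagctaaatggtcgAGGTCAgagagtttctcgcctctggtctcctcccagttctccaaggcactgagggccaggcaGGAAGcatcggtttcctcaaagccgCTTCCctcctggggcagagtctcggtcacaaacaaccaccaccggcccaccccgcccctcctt

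The *EFNB2* window held 40 CpG dinucleotides and 78.4% G and C, the *EPHB4* window 29 and 72.8%, and the *ROBO4* window 10 and 54.8%. *EPHB4* and *ROBO4* each held 2 ETS cores, *ROBO4* also 1 AGGTCA, and *EFNB2* none of the 4 letter strings. Over the windows of 27305 genes, 21.1% held TGGGAA, 12.1% AGGTCA, 25.2% ACAAT and 65.1% GGAAG. Among the 53 members with a window, TGGGAA was found in 10, AGGTCA in 5, ACAAT in 9 and GGAAG in 29. These matches describe letters in a short window and show no binding.

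Arterial and venous endothelium differed in 16 members, and the classical pair was among them. In the quasi-likelihood test of edgeR, with p-values adjusted over all genes tested after Benjamini and Hochberg and used for every comparison here, 10 members were higher in AE, where 8.43% of the 19599 genes tested were, and 6 were higher in VE, where 9.28% of all genes were. The median log2 fold change was 0.09 over the 53 tested members and 0.02 over all genes.

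Among the ephrin ligands, *EFNB2* stood at 652 and 636 CPM in AE, 326 and 286 in unsplit endothelium and 145 and 107 in VE. Both AE libraries lay far above both VE libraries, and the log2 fold change was 2.44 (SE 0.39, adjusted p = 0.00018). *EFNA1*, an A-class ephrin known from endothelium, was at 99.2 and 83.7 CPM in AE and 54.3 and 47.6 in VE, a smaller difference (0.93, SE 0.16, adjusted p = 0.00029). *EFNA5*, an A-class ephrin that guides axons, was at 31.3 and 38.9 CPM in AE and 9.53 and 10.3 in VE (1.90, SE 0.26, adjusted p = 3.49e-05). The other 5 ephrins did not pass.

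The 2 Eph receptors that passed were both higher in VE. *EPHB4* was at 142 and 118 CPM in VE, 73.8 and 64.2 in unsplit endothelium and 62.5 and 53.6 in AE. The VE libraries lay above all others, and the log2 fold change was -1.08 (SE 0.15, adjusted p = 4.29e-05). *EPHA4*, a receptor that binds ephrins of both classes, was at 26.9 and 32.2 CPM in VE and 16.1 and 13.6 in AE (-0.91, SE 0.18, adjusted p = 0.00142). *EPHA2*, another Eph receptor known from endothelium, was at 28.8 and 23.6 CPM in AE and 29.0 and 27.2 in VE (-0.02, SE 0.20, adjusted p = 0.977).

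**Figure D2:**
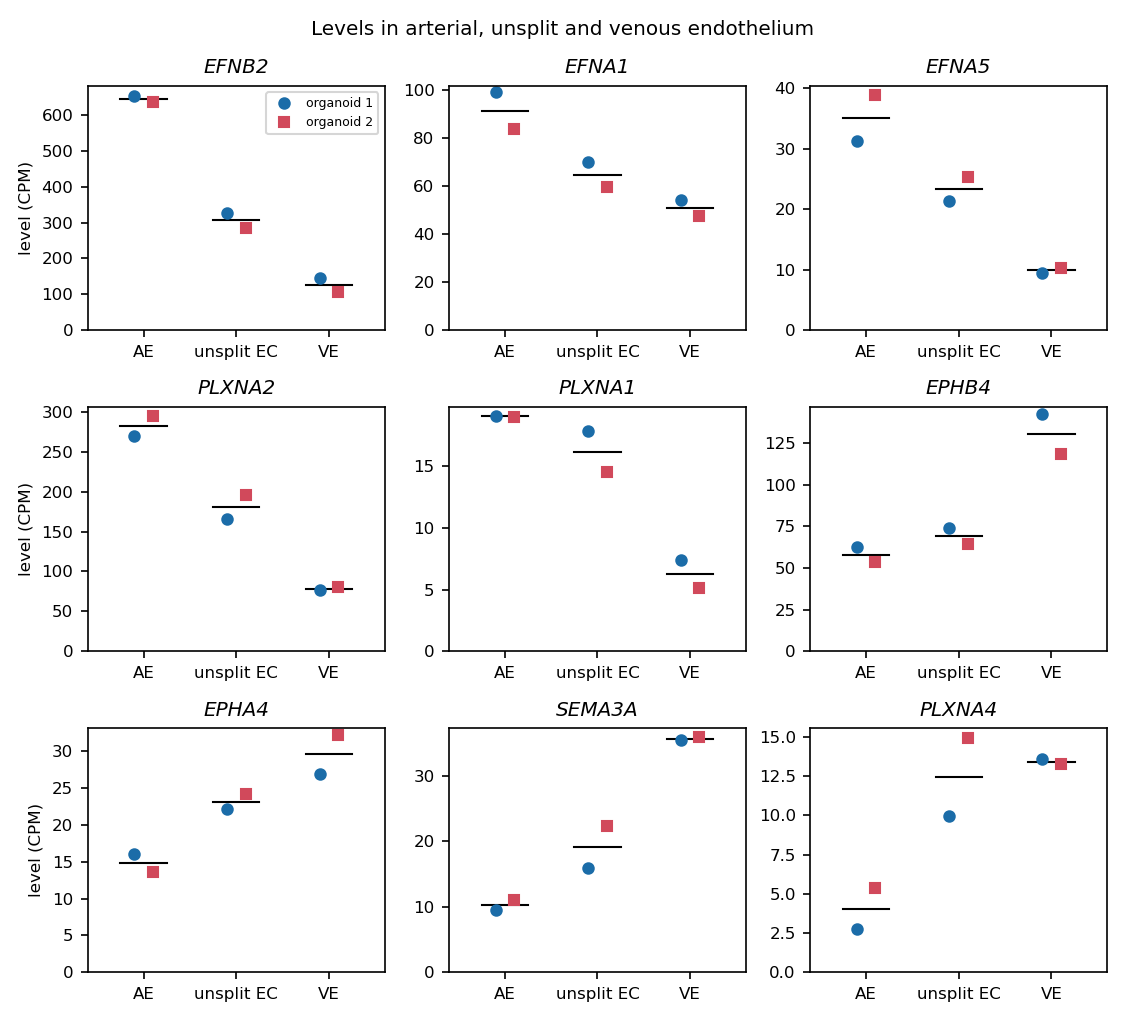
Levels in CPM (axis from 0) of 9 genes in arterial, unsplit and venous endothelium, with 1 point per organoid and a bar at the mean of both. *EFNB2* fell from AE over unsplit endothelium to VE, and *EPHB4* stood higher in VE (142 and 118 CPM) than in both other classes.

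The ligand and the receptor were also read in single cells, after each cell was thinned to 5000 UMIs and shallower cells were left out (168 and 254 in AE, 69 and 95 in VE). *EFNB2* had a UMI in 84.7% and 83.5% of AE cells and 37.7% and 31.2% of VE cells (91.8%, 90.1%, 52.3% and 43.5% without thinning). *EPHB4* had one in 27.2% and 23.0% of AE cells and 48.3% and 40.8% of VE cells (51.4%, 42.8%, 68.6% and 61.3% without thinning). The separation was one of degree, since 23.4% and 19.5% of AE cells and 17.4% and 11.8% of VE cells held UMIs of both genes. As background, the thinned share with *EFNB2* was 1.11% and 0.996% in Ery, 1.30% and 0.515% in Mo/Mφ and 5.60% and 3.76% in Mk. That with *EPHB4* was 1.30% and 0.515% in Mo/Mφ and 0.560% and 0.751% in Mk. Mk cells were shallower, with median depths of 7066 and 6665 UMIs before thinning. Median depths before thinning were 13409 and 9276.5 UMIs in Ery, 13664 and 12775 in Mo/Mφ, 12228.5 and 9799 in AE and 10937.5 and 9393 in VE. Ery held *EPHB4* in 1.77% and 2.07% of cells, at 6.17 and 4.77 CPM, above Mk (1.08 and 1.54 CPM) and Mo/Mφ (2.39 and 1.62 CPM). Cells in which neither gene was seen made up 11.5% and 13.1% of AE and 31.3% and 39.7% of VE.

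**Figure D3:**
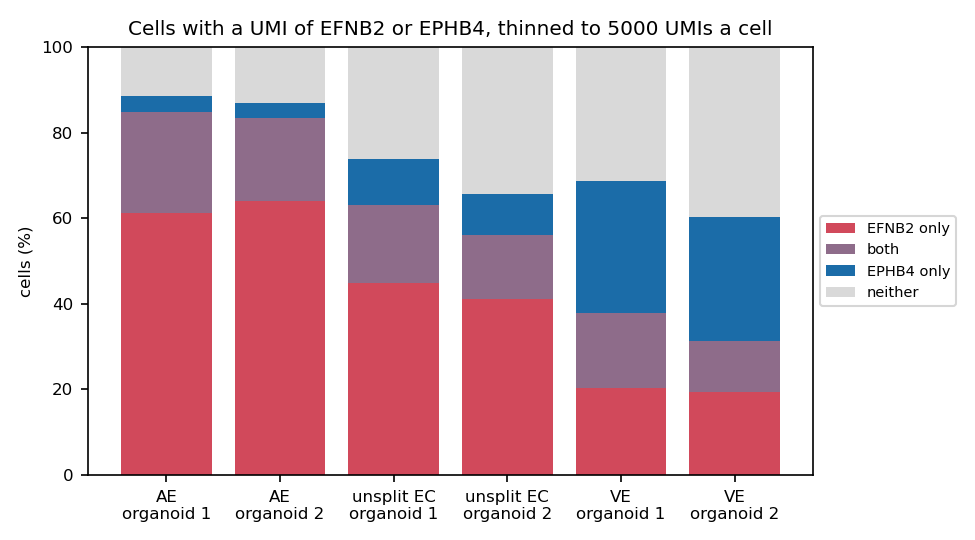
Share of cells (%) with a UMI of *EFNB2* only, of both genes, of *EPHB4* only or of neither, by class and organoid, each cell thinned to 5000 UMIs. *EPHB4* alone was seen in 30.9% and 29.1% of VE cells and in 3.79% and 3.48% of AE cells.

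Among the plexins, 4 of the 8 tested were higher in AE and 1 in VE. *PLXNA2*, a receptor for class 3 and class 6 semaphorins, was at 270 and 295 CPM in AE and 76.8 and 80.6 in VE. The 2 groups lay more than 3-fold apart and each was tight, and the log2 fold change was 1.93 (SE 0.15, adjusted p = 3.68e-08). *PLXNA1*, another receptor of secreted semaphorins, was at 19.1 and 19.0 CPM in AE and 7.41 and 5.14 in VE (1.67, SE 0.24, adjusted p = 4.38e-05). *PLXNA3* was at 11.7 and 9.62 CPM in AE and 6.66 and 4.48 in VE (1.02, SE 0.24, adjusted p = 0.00518).

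*PLXND1*, the endothelial plexin that binds SEMA3E and shapes the vessel pattern, was at 418 and 332 CPM in AE and 291 and 222 in VE (0.63, SE 0.21, adjusted p = 0.0417). This call was lost under 8 of 19 alternatives. *PLXNA4* alone was higher in VE, at 13.6 and 13.3 CPM against 2.74 and 5.36 in AE (-1.66, SE 0.36, adjusted p = 0.00264). The A plexins were thus divided, 3 higher in AE and 1 in VE.

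Of the semaphorins, 3 were higher in AE and 3 in VE, most of them at low levels. *SEMA3A*, a secreted repellent that acts through plexin A receptors and neuropilin-1, was at 35.4 and 36.0 CPM in VE and 9.56 and 11.1 in AE, with the unsplit cells between (16.0 and 22.3). The difference was -1.71 (SE 0.25, adjusted p = 6.24e-05). *SEMA4C*, a transmembrane ligand of plexin B2, was at 86.7 and 74.9 CPM in AE and 59.6 and 46.4 in VE (0.69, SE 0.17, adjusted p = 0.00865). *SEMA7A*, which is anchored by a lipid and binds plexin C1 and integrins, was at 6.36 and 5.25 CPM in AE and 2.57 and 2.49 in VE (1.28, SE 0.28, adjusted p = 0.00294).

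Less firm were *SEMA3C*, which guides the outflow tract, *SEMA3B* and *SEMA4D*. *SEMA3C* stood at 4.27 and 3.54 CPM in AE and 0.756 and 0.995 in VE (2.23, SE 0.58, adjusted p = 0.0101). *SEMA3B* was at 0.464 and 0.312 CPM in AE and 1.21 and 1.33 in VE (-1.57, SE 0.51, adjusted p = 0.0386), and *SEMA4D*, a ligand of plexin B1, at 1.48 and 2.29 CPM in AE and 3.33 and 4.48 in VE (-0.96, SE 0.32, adjusted p = 0.0420). The calls of *SEMA3B*, *SEMA4D* and *SEMA3C* were lost under 10, 8 and 5 of 19 alternatives, *SEMA3C* among them when the cardiomyocyte list needed 30 UMIs (1.12, adjusted p = 0.0983).

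None of the *SLIT* or *ROBO* genes differed between AE and VE by this test. *ROBO1* was at 1062 and 1185 CPM in AE and 832 and 946 in VE (0.42, SE 0.19, adjusted p = 0.152). *ROBO4* was at 99.7 and 85.5 CPM in AE and 78.8 and 60.8 in VE (0.49, SE 0.20, adjusted p = 0.112). *ROBO2* leaned to VE, at 59.0 and 58.0 CPM against 14.0 and 31.3 in AE (-1.30, SE 0.51, adjusted p = 0.0869).

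**Figure D4:**
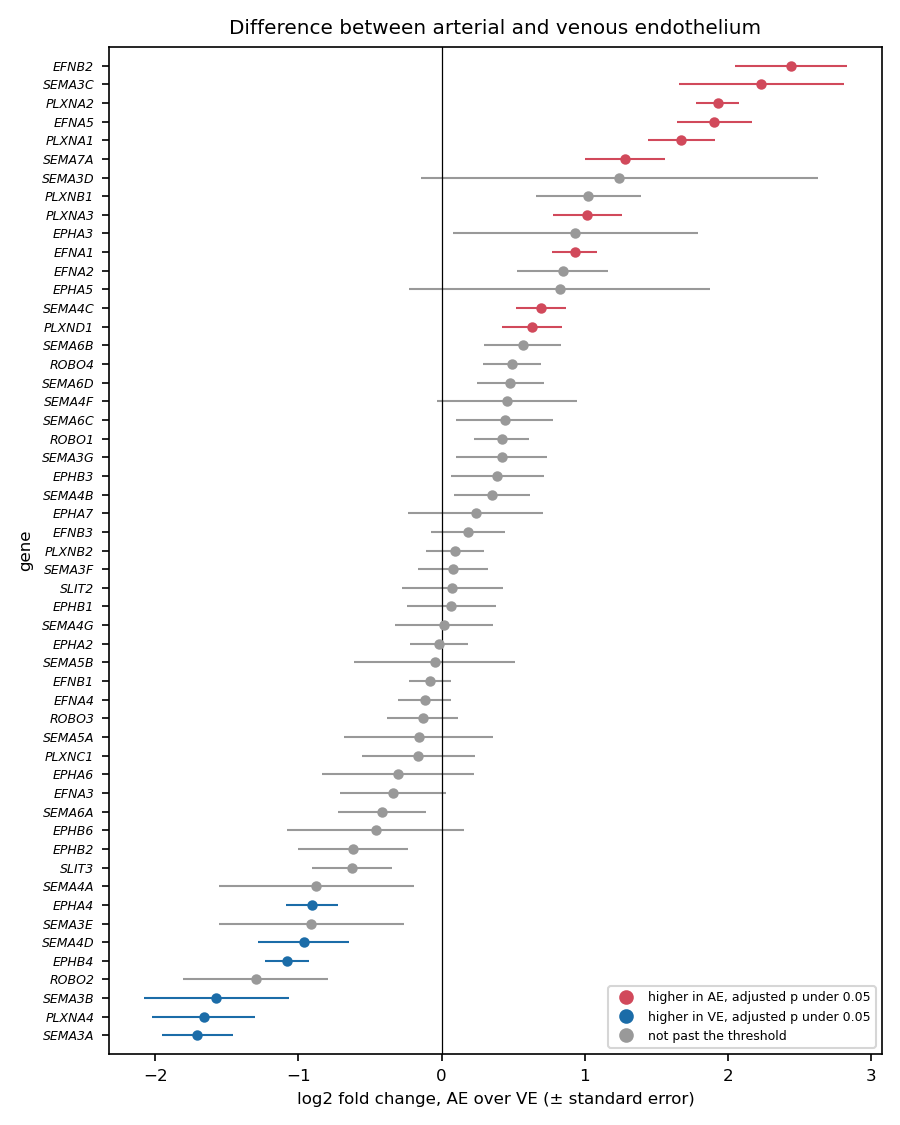
Log2 fold change of AE over VE for the 53 tested genes, with its standard error as the bar, ordered by size. *EFNB2* (2.44) stood at the arterial end and *SEMA3A* (-1.71) at the venous end, and the genes in grey did not pass an adjusted p of 0.05.

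With the organoid as a block 14 members were higher in AE and 8 in VE, all 16 of the calls above among them, and *EFNA2*, *PLXNB1*, *ROBO4*, *ROBO2*, *SEMA6B* and *SLIT3* were added. Calls over all 19599 genes rose as well, from 1652 to 2542 higher in AE and from 1818 to 2373 higher in VE. Without the AE and VE libraries of organoid 32.7, 9 of the 16 calls remained, and without those of organoid 33.10, 8 of the 16. Lost without 32.7 were *PLXNA4*, *PLXND1*, *SEMA3B*, *SEMA3C*, *SEMA4C*, *SEMA4D* and *SEMA7A*, and lost without 33.10 were *EPHA4*, *PLXNA3* and the same genes except *PLXNA4*. *EFNB2*, *EFNA1*, *EFNA5*, *EPHB4*, *PLXNA1*, *PLXNA2* and *SEMA3A* passed under all 19 alternatives. When dividing cells were left out, *EFNB2* was at 2.44 and *EPHB4* at -1.09, and 15 of the 16 calls remained, all but *SEMA4D*.

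The partners of these families were read from a list of 41 co-receptors and effectors, of which 38 were tested. Between AE and VE 11 were higher in AE and 7 in VE. The neuropilins went opposite ways. *NRP1*, the co-receptor of SEMA3A, was at 1002 and 1119 CPM in AE and 570 and 635 in VE (0.90, adjusted p = 0.0183), whereas *NRP2*, a co-receptor of SEMA3F and of VEGF-C, was at 276 and 254 CPM in AE and 1042 and 1066 in VE (-1.91, adjusted p = 8.63e-06). 

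Among the 5 of that list with the largest difference, *TIAM1*, an exchange factor for RAC, was at 54.0 and 65.2 CPM in AE and 362 and 407 in VE (-2.61, adjusted p = 4.15e-07). *KALRN* was at 183 and 207 CPM in AE and 486 and 554 in VE (-1.33, adjusted p = 0.000486). *SDCBP*, the PDZ protein syntenin that binds B ephrins, was at 99.2 and 85.1 CPM in AE and 296 and 249.5 in VE (-1.48, adjusted p = 3.95e-06), so that 4 of the 5 were higher in VE. *MICAL1*, an enzyme that oxidizes actin downstream of plexins, was at 7.42 and 5.62 CPM in AE and 2.42 and 3.48 in VE (1.24, adjusted p = 0.0292), a call lost under 4 of 19 alternatives.

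The netrins and their receptors are the fourth classical guidance system. They were counted from a list of 18 genes that also held *FLRT2* and *FLRT3*, which are neither. Of the list 15 genes were tested. Of these 2 were higher in AE and 3 in VE. *UNC5B*, the netrin receptor that also binds ROBO4, was at 316 and 325 CPM in AE and 47.6 and 43.8 in VE (2.89, adjusted p = 8.45e-10). *FLRT2*, a ligand of UNC5 receptors, was at 408 and 358 CPM in VE and 9.74 and 13.1 in AE (-4.99, adjusted p = 2.38e-09). *UNC5C* (252 and 315 CPM in VE, 29.9 and 41.6 in AE) and *FLRT3* (23.0 and 17.1 in VE, 2.32 and 1.77 in AE) were also higher in VE, and *DCC* (21.2 and 25.8 in AE, 5.14 and 9.62 in VE) was higher in AE. The calls of *DCC* and *UNC5C* were lost under 3 and 2 of 19 alternatives.

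Endothelium as a whole was set against the equally weighted mean of the other lineages. In each comparison with the rest the fitted lineages were endothelium, CM, stroma, HPC, Mk, Ery, Mo/Mφ and Gran, so most were blood. A member low in blood can thus be higher than the rest and still be lower than in another lineage. Of the members 32 were higher in endothelium, where 34.2% of all genes tested were, and 9 were lower, where 25.9% were. *ROBO4* was at 99.7 and 85.5 CPM in AE and 78.8 and 60.8 in VE, and at most 2.60 CPM in any class outside endothelium. Its log2 fold change was 6.72 (SE 0.15, adjusted p = 1.06e-17).

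*EFNA1* followed at 5.20 (SE 0.11), with 45.8 and 27.0 CPM in the untested PFE cells and at most 8.21 CPM in the other classes outside endothelium. *EFNB2* was higher by 4.81 (SE 0.21) and ranged up to 79.0 CPM outside endothelium, in MES of organoid 32.7. *SEMA3F*, a secreted semaphorin that binds neuropilin-2, was at 18.5 and 15.1 CPM in AE and 18.9 and 14.8 in VE (4.41, SE 0.22 for endothelium over the rest). PE/ST stood at a like level (13.0 and 19.1 CPM), and Mk, Ery and HPC were under 1 CPM. *EPHA2* was higher by 4.15 (SE 0.14). *PLXND1* (3.87, SE 0.10), *EPHB4* (3.91, SE 0.09), *ROBO1* (3.36, SE 0.09) and *PLXNA2* (2.77, SE 0.08) were among the 32 as well.

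Lower in endothelium were *SEMA4D* (-2.52, SE 0.14), *SEMA4A* (-2.34, SE 0.33), *SEMA4B* (-1.94, SE 0.15), *EPHB2* (-1.49, SE 0.21) and *EPHA3* (-1.33, SE 0.42). Of these calls *EPHA3* was lost under 4 of 18 alternatives, *SEMA4A* under 2 and *EPHB2* under 1. *SEMA4B* was at 4.50 and 4.06 CPM in AE against 29.5 and 39.0 in Mo/Mφ and 28.5 and 29.4 in CM. The 3 transmembrane class 4 semaphorins named here were thus low in the class in which *SEMA4C* was high.

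The secreted repellent *SLIT2* stood highest in cardiomyocytes. Of the members 42 were higher in CM than in the mean of the rest, where 38.4% of all genes tested were, and 3 were lower, where 22.7% were. As most of the rest was blood, the 42 included genes lower in CM than in AE. Among them were *ROBO1*, *ROBO4*, *EFNB2* (31.1 and 17.7 CPM in CM), *EPHB4* (10.5 and 10.8), *EFNA1* (8.21 and 7.56) and *PLXNA2* (92.3 and 115). *SLIT2* was at 1337 and 1645 CPM in CM, 266 and 312 in MES, 84.4 and 166 in PE/ST and 78.6 and 127 in AE. The CM libraries lay at least 4-fold above all others, and the log2 fold change was 5.89 (SE 0.21, adjusted p = 7.7e-15).

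*SLIT3* was also high in stroma, at 492 and 645 CPM in CM, 490 and 421 in MES and 400 and 411 in PE/ST, against 31.1 and 33.6 in AE (5.07, SE 0.17). *ROBO1* was at 150 and 168 CPM in CM and *ROBO4* at 2.60 and 1.78, below their levels in AE and VE, whereas *ROBO2* was at 63.1 and 62.3 CPM in CM, against 59.0 and 58.0 in VE. *SEMA3A* was at 224 and 278 CPM in CM, above every other class (4.39, SE 0.14), and *SEMA3C*, at 28.7 and 31.8 CPM, stood near its level in MES (25.8 and 26.9).

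The Eph receptors *EPHA7* and *EPHA4* were also among the 5 members with the largest increase in CM. *EPHA7* was at 71.7 and 69.5 CPM in CM and 46.9 and 35.1 in MES, and at most 14.9 CPM in the other classes (5.60, SE 0.23). *EPHA4* was at 62.0 and 58.6 CPM (4.42, SE 0.14). The members lower in CM were *SEMA7A* (-1.59, SE 0.22), *SEMA4D* (-0.67, SE 0.18) and *PLXND1* (-0.50, SE 0.18). Each of the last 2 changed sign under 1 of 18 alternatives and lost its call under 3 more.

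Stroma, the mean of PE/ST, MES and unsplit stroma, had 44 members higher than the rest, where 36.6% of all genes tested were, and 4 lower, where 27.7% were. *EFNA5* was at 486 and 568 CPM in PE/ST and 86.6 and 135 in MES (4.77, SE 0.13 for stroma over the rest). *SEMA6D*, a transmembrane semaphorin that acts with plexin A1 in heart development, was at 207 and 248 CPM in PE/ST and 142 and 185 in MES (4.69, SE 0.11). Next came *SEMA3D* (4.56, SE 0.71), at 3.83 and 9.91 CPM in PE/ST and 1.29 and 2.58 in MES, *SLIT3* (4.46, SE 0.15) and *SEMA3G* (4.32, SE 0.33). *SEMA3D* rested on 5 and 26 UMIs in PE/ST and had 0 in HPC, Mo/Mφ and Gran. In PFE, outside the tests, it was at 12.6 and 27.0 CPM (11 and 7 UMIs). Lower were *SEMA4D* (-2.91, SE 0.18), *SEMA4A* (-2.35, SE 0.41), *PLXNC1* (-0.63, SE 0.23) and *SEMA7A* (-0.49, SE 0.18), and the calls of the last 2 were lost under 5 and 9 of 18 alternatives.

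Between PE/ST and MES, 4 members were higher in PE/ST, where 2.12% of all genes tested were, and 4 in MES, where 3.04% were. PE/ST held only 0.75% and 1.29% of the kept cells, far below the share of the paper's PE/ST cluster, and MES 6.60% and 3.75%. The PE/ST values therefore describe the few cells that met the gate. All 4 that were higher in MES were A-class Eph receptors, of which 6 were tested. Of the 5 A-class ephrins 1 was higher in PE/ST and the other 4 did not pass. *EFNA5*, a ligand of A-class receptors, was higher in PE/ST by 2.18 (SE 0.22, adjusted p = 8.02e-06), with unsplit stroma between (210 and 269 CPM).

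*EPHA3* was at 77.7 and 153 CPM in MES and 12.3 and 21.3 in PE/ST (-2.77, SE 0.47, adjusted p = 0.0013). *EPHA7* was at 46.9 and 35.1 CPM in MES, and in PE/ST at 0 of 1303800 UMIs, which allows up to 2.30 CPM, and at 4.57 CPM (-3.87, SE 0.50, adjusted p = 0.00011). *EPHA4* was at 30.9 and 45.5 CPM in MES and 9.20 and 11.4 in PE/ST (-1.92, SE 0.24, adjusted p = 7.9e-05). *EPHA6* was at 26.3 and 8.74 CPM in MES, 3-fold apart, and 0.767 and 1.52 in PE/ST (-3.90, SE 0.88, adjusted p = 0.0117).

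The secreted semaphorins *SEMA3G* (16.9 and 22.5 CPM in PE/ST, 2.37 and 5.38 in MES, 2.34, SE 0.36, adjusted p = 0.00081) and *SEMA3F* (13.0 and 19.1 against 3.88 and 6.61, 1.61, SE 0.32, adjusted p = 0.0047) were higher in PE/ST. So was *PLXNA4* (258 and 303 CPM against 94.4 and 139, 1.19, SE 0.28, adjusted p = 0.0133). Calls were lost under 4 of 19 alternatives for *SEMA3F*, 3 each for *PLXNA4* and *EPHA6* and 1 for *EPHA3*. *ROBO2*, at 653 and 737 CPM in PE/ST and 174 and 277 in MES, did not pass (1.55, SE 0.48, adjusted p = 0.0736), and with the organoid as a block it did (1.57, adjusted p = 0.0036). With that block 7 members were higher in PE/ST and 6 in MES, where 584 and 844 of all 19599 genes were. With the cardiomyocyte list at 30 UMIs, which raised the PE/ST cells to 302 and 560, 8 and 7 members were, and 645 and 808 of 20032 genes. The median log2 fold change of the members was 0.05 with both organoids. It was -0.02 without organoid 32.7 in these classes and -0.15 without organoid 33.10.

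**Figure D5:**
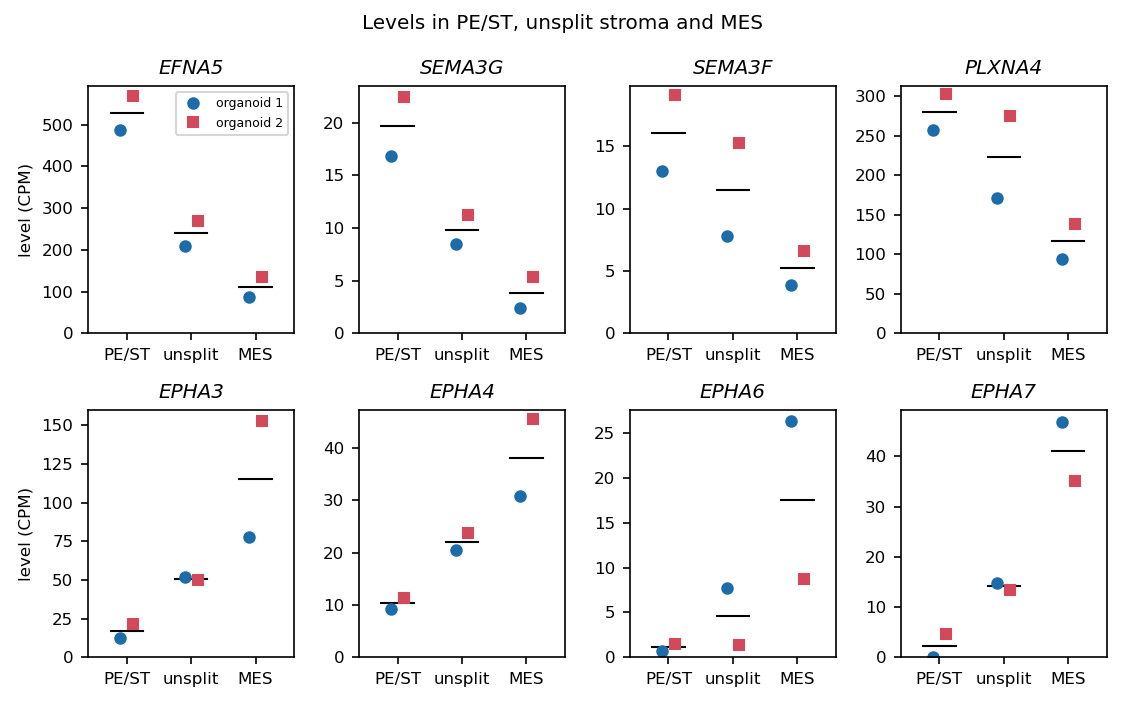
Levels in CPM (axis from 0) of the 8 genes that passed between PE/ST and MES, in PE/ST, unsplit stroma and MES, with 1 point per organoid and a bar at the mean of both. *EFNA5*, *SEMA3G*, *SEMA3F* and *PLXNA4* fell from PE/ST to MES, and *EPHA3*, *EPHA4*, *EPHA6* and *EPHA7* rose.

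Between PE/ST and MES the list of co-receptors and effectors had 3 genes higher in PE/ST and 5 in MES, with both neuropilins among the 5. *NRP1* was at 127 and 196 CPM in PE/ST and 344 and 424 in MES (-1.32, adjusted p = 0.0052), and *NRP2* at 69.8 and 45.3 against 183 and 170 (-1.74, adjusted p = 0.00046). Of the netrin list 2 were higher in MES and none in PE/ST.

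In each of the 3 blood classes tested, more members were lower than higher against the rest. In Mo/Mφ 7 members were higher than in the rest, where 22.7% of all genes tested were, and 29 were lower, where 18.6% were. As an alternative, 10% of each class's UMIs were removed in the proportions of its organoid's summed counts (10% of the organoid profile removed). Then 9 members passed as higher and 5 as lower, where 4384 and 2545 of 19568 genes did. The median log2 fold change of the members went from -1.03 to -1.29. Removing a shared profile takes relatively most where a gene is low, so this shift is no test of the direction. *SEMA4D*, known as CD100 of leukocytes, was at 32.3 and 42.0 CPM in Mo/Mφ (1.90, SE 0.16), and also at 47.9 and 46.5 in Gran and 50.1 and 30.3 in HPC, against 1.48 and 2.29 in AE.

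*SEMA4A* was at 12.6 and 7.54 CPM in Mo/Mφ (2.89, SE 0.27) and 24.4 and 14.8 in Gran, and at most 3.51 CPM in every other class. *SEMA6B* (23.5 and 17.0 CPM, 2.86, SE 0.26), *EPHB2* (13.0 and 21.8 CPM, 1.70, SE 0.22) and *SEMA4B* (29.5 and 39.0 CPM, 1.63, SE 0.15) were the others with the largest increase. *EPHB2* was nevertheless lower there than in PE/ST (66.7 and 63.2 CPM), and *SEMA6B* lower than in AE (39.9 and 30.3 CPM). *SEMA4B* stood at a like level in MES (41.8 and 31.0 CPM). The largest decreases were those of *EFNB3*, *EFNA2*, *EPHB6*, *EPHA3* and *ROBO4*, from -3.38 to -2.97, genes under 1 CPM in Mo/Mφ in both organoids. The calls of these 5 were lost under 2, 4, 4, 1 and 6 of 18 alternatives, and that of *EPHA3* turned under 1 more.

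In Mk 9 members were higher, where 28% of all genes tested were, and 20 lower, where 24.2% were. With 10% of the organoid profile removed 10 members passed as higher and 5 as lower, where 5607 and 3746 of 19568 genes did. The median log2 fold change of the members went from -0.60 to -0.98, a direction that this removal favours. *PLXNA4* was at 54.2 and 66.6 CPM in Mk (2.37, SE 0.22), below its level in CM (142 and 165) but well above Ery (4.94 and 3.97). *SEMA5A*, a semaphorin with thrombospondin repeats, was at 38.1 and 27.8 CPM (1.69, SE 0.33), *EFNB1* at 13.9 and 13.0 CPM (1.39, SE 0.14) and *ROBO3* at 4.77 and 4.56 CPM (1.56, SE 0.26). Each was higher still in another lineage, *SEMA5A* in CM (125 and 175 CPM), and *EFNB1* (28.3 and 26.6) and *ROBO3* (10.3 and 7.80) in AE. *EPHA5* had the largest value (2.39, SE 0.76) but rested on 7 and 20 UMIs. Lower were *SEMA6B* (-2.98), *SEMA3A* (-2.66), *EPHB4* (-2.29), *EPHB2* (-2.22) and *PLXNB1* (-2.19). In Mk *SEMA6B* had only 1 and 8 UMIs, *PLXNB1* 2 and 4 and *EPHB2* 2 and 22. The Mk calls of *SEMA6B*, *EPHB4*, *EPHB2*, *PLXNB1* and *ROBO3* were each lost under 1 of 18 alternatives, and that of *EPHA5* under 2 of 17.

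Erythroid cells had 2 members higher, where 26.7% of all genes tested were, and 31 lower, where 23.7% were (4 and 9 with 10% of the organoid profile removed). The 2 were *SEMA7A*, the John Milton Hagen blood group antigen of red cells, at 4.26 and 4.88 CPM (1.00, SE 0.19, adjusted p = 0.00021), and *SEMA4C*, at 10.9 and 9.88 CPM (0.81, SE 0.17, adjusted p = 0.000497). *SEMA7A* was at a like level in Mk (3.90 and 4.25 CPM), Gran (3.75 and 4.94), AE (6.36 and 5.25) and HPC (6.15 and 5.91). *SEMA4C* was higher in AE (86.7 and 74.9 CPM). *SEMA6B*, *EFNB2*, *EPHB2*, *SEMA5A* and *EPHA7* had the largest decreases, from -2.97 to -2.35. In Ery *SEMA6B* had only 4 and 8 UMIs, *EPHA7* 7 and 3 and *EPHB2* 7 and 21. The calls of *SEMA4C* and *EPHA7* in Ery were lost under 3 of 18 alternatives each, and those of *SEMA6B*, *EFNB2*, *EPHB2* and *SEMA5A* under 1 each. With 10% of the organoid profile removed fewer members passed as lower. The median log2 fold change of the members went from -1.19 to -3.78, a direction that this removal favours. Over all genes 4959 were then higher and 3551 lower of 19568.

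The 6 comparisons with the rest share libraries, because each lineage also stands in the mean of the others. In PFE, outside the tests, *EPHA6* was at 119 and 139 CPM, against 26.3 and 8.74 in MES, and *ROBO2* at 458 and 382 CPM, in 64 and 15 cells. *ROBO2* was also at 79.9 and 289 CPM in HPC, values that lie over 3-fold apart in 37 and 76 cells.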

How the data were processed

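The authors made the deposited UMI counts of each gene in each barcode, which are whole numbers, from 10x 3′ libraries (v3.1 chemistry) with Cell Ranger 7.0.0 on GRCh38, intronic reads included. The counts precede the study's equalization of depth, SoupX and cell filter, so free RNA can add UMIs of abundant transcripts. The libraries held 191152562 and 233818881 UMIs in 16866 and 19948 barcodes, of which 100 barcode sequences were shared. Cells with 50 to 11000 genes and under 30% mitochondrial UMIs were kept (16792 and 19893). Of these 3599 and 3869 met no list, and 4090 and 5117 met several and were left out. No doublet caller was run. The UMIs of a class were summed within each organoid. The 12 classes that had 20 or more cells in both were fitted together (edgeR 4.0.16, R 4.3.3, TMM, filterByExpr, Benjamini-Hochberg adjustment). The 5 members under the filter were not tested. The p-values rest on the spread between 2 organoids of 1 line, estimated per gene over all 12 classes fitted. The main fit left out the pairing of classes by organoid. The standard error is the log2 fold change divided by the square root of F.

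The members, gene lists and tests were chosen with earlier results of these data known. The named genes were *EFNB2*, *EPHB4*, up to 12 passing members per direction in AE against VE, up to 5 in each other comparison and up to 5 genes per pathway list. Others were named after their values were seen. Both classes of an organoid share its dissociation and library, and the organoid differences of AE and VE correlated over 10786 genes (r = 0.459; PE/ST and MES 0.350). In simulated AE and VE counts (19264 genes) 57 of 100 genes changed by 1 on the log2 scale were recovered and 89 of 100 changed by 2, and 3.95% of calls were false. The simulation had no organoid effect, took the spread from its trend over expression level and changed no gene of low count. Its rates therefore may not hold for such genes or for genes of unusual spread. A limit for 0 UMIs is that of 3 counts and covers counting error only. Promoters are from RefSeq (GRCh38.p14), matched by symbol, the first start listed for each gene. The 19 alternatives changed the gates, splits, cell filters, removal of the organoid profile, block, size factors, low-count filter, classes fitted, organoids and tool (DESeq2 1.42.0). The organoid profile was the summed counts of all its barcodes. An amount of 10% of a class's UMIs was removed in these proportions, rounded and cut at 0. Free RNA itself was not measured.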

Additional observations from a re-analysis of the deposited data

How the results depend on the processing

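Across 88 gene and comparison pairs named in the text and all their alternatives (1617 values), 119 values kept their direction but no longer passed, 3 turned and the others kept direction and side of the threshold. Those that turned were *PLXND1* in CM with 10% of the organoid profile removed (0.13), *SEMA4D* in CM without dividing cells (0.13) and *EPHA3* in Mo/Mφ with the gate by dominance (0.14). For AE against VE, leaving out either organoid gave 1260 to 1301 genes in place of 3470, 6 members higher and 3 lower. For PE/ST against MES the 1012 genes became 1546 with the stricter gate, 632 with the looser gate, 391 with dominance, 594 at a split ratio of 1, 1780 with no low-count filter, 536 with only these classes and 218 to 380 without an organoid. Members higher in PE/ST then numbered 7 with the stricter gate, with the organoid as replicate block and with no low-count filter. Over all genes 556, 584 and 557 were. With the cardiomyocyte list at 30 UMIs 8 members were higher, and 645 genes. Members lower numbered 7 with the stricter gate and with that list, and 11 with no filter, where 990, 808 and 1223 of all genes were. With 10% of the organoid profile removed, members lower were 4 in endothelium, 1 in CM, 5 in Mk, 9 in Ery and 5 in Mo/Mφ. Of 19568 genes 4100, 3479, 3746, 3551 and 2545 were lower there. Members higher in Ery were 4, where 4959 of all genes were. In Ery 1 member was higher with dominance, without dividing cells and on total UMIs, and 4 with no filter. Over all genes 4650, 4864, 2446 and 5460 were. In CM 1 member was lower with dominance, where 3041 of all genes were. In stroma 2 were lower on total UMIs, where 3389 of all genes were. Without an organoid, members lower ranged from 5 to 9 in endothelium, 1 to 4 in CM, 2 to 3 in stroma and 15 to 23 in Mo/Mφ.

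Scaling to total UMIs moved the median log2 fold change of all genes from 0.05 to 0.26 in endothelium, 0.20 to 0.35 in CM, 0.08 to 0.32 in stroma, 0.00 to -0.25 in Mk and -0.03 to -0.48 in Ery, so differences from the rest are relative to these. Fitting only the classes compared could not be varied for the 6 comparisons with the rest. With 1 organoid left out of a class, the lone library was assumed to vary like the others. Values under about 3 CPM rest on few UMIs in PE/ST, HPC and Gran. The replicate block kept every named call past the threshold.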
